A study of Mus musculus with 6 samples.

Results

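The genes *Esrrb*, *Nr5a2* and *Nr0b1* encode orphan nuclear receptors, members of the nuclear receptor superfamily without an established physiological hormone, and they were followed over all 6 arrays of the series. They were chosen by name, with earlier results of these data known. Every probe set whose only gene symbol is *Esrrb*, *Nr5a2* or *Nr0b1* was taken, which gave 4 probe sets for these 3 of the 17097 genes with a probe set of their own. *Esrrb* has 2 probe sets, 1436926_PM_at and 1422986_PM_at, *Nr5a2* has 1420410_PM_at and *Nr0b1* has 1417760_PM_at. The cells were E14tg2a, a mouse ESC line, and each condition was measured on 1 Affymetrix array. By the labels ESCs were grown without feeders in serum with LIF, and the methods also give a culture in N2B27 with CHIR99021, PD0325901 and LIF before EpiLC induction, without saying which of them the ESC array came from. EpiLCs, cells with features of the primed epiblast, were made by 2 days in activin A, bFGF and knockout serum replacement on fibronectin (EpiLCs (d2)) and were then replated in GK15 medium with or without doxycycline. EpiLCs (d2), EpiLCs (d4) and EpiLCs + PRDM14 carry the label scramble, and the other EpiLC arrays, at day 2 and with PRDM14, carry the label *Tet1*/*Tet2* KD. The label of the ESC array names no shRNA, and no day is given for either array with PRDM14. By the study's methods the lines hold a doxycycline-inducible FLAG-*Prdm14* cassette placed by piggyBac, colonies were picked after selection, and the shRNAs were delivered by lentivirus. Between a KD-labelled array and its scramble counterpart, the effects of the picked line, the shRNA and the single culture cannot be told apart. Between a day 2 array and one with PRDM14, the effects of PRDM14, doxycycline, replating, the change of medium and later time cannot either. EpiLCs (d4) are a later array without PRDM14 under the scramble label, and the KD label has none.

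Nuclear receptors bind DNA through a zinc-finger domain and recruit coactivators or corepressors through a ligand-binding domain. In mouse ESCs, ESRRB works beside OCT3/4, SOX2 and NANOG, and its gene is held down by the WNT pathway repressor TCF7L1. NR5A2 (LRH-1) binds DNA as a monomer, contributes to *Pou5f1* transcription in the epiblast and, in the liver, drives bile acid genes. NR0B1 (DAX1) lacks the usual DNA-binding domain, binds NR5A receptors and other nuclear receptors, and acts mostly as a corepressor of them. All are markers of naive rather than primed pluripotency.

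In RefSeq (GRCm38.p6) *Esrrb* lies at chr12:86361117-86521628, *Nr5a2* at chr1:136842562-136960448 and *Nr0b1* at chrX:86191775-86195947. The 250 bases before each annotated start are shown for the outer start of *Esrrb* (chr12:86360867-86361116, + strand), the outer start of *Nr5a2* (chr1:136960449-136960698, - strand) and the start of *Nr0b1* (chrX:86191525-86191774, + strand). At their brightest probe sets these genes were all higher in ESCs and EpiLCs + PRDM14 than in the scramble EpiLCs without PRDM14. Whether they share regulation was not tested. For *Nr5a2* the region that the study amplified in its chromatin and methylation assays is shown too (chr1:136953692-136953834, - strand, 143 bases), since it lies 204 to 62 bases before the inner start of the gene. Sequences run 5′ to 3′ on the strand of the gene. Capitals mark the STAT palindrome in *Esrrb*, the nuclear receptor half-site in *Nr5a2* and *Nr0b1*, and the primers in the amplified region.
Esrrb outer start: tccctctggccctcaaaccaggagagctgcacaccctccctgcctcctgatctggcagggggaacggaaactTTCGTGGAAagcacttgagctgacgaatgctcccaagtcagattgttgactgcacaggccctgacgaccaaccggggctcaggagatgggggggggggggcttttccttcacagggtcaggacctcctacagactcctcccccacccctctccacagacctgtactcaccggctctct
Nr5a2 outer start: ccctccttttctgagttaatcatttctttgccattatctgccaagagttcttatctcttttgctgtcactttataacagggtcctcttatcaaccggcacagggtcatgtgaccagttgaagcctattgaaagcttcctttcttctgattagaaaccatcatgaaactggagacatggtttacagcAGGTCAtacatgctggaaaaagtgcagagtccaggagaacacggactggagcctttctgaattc
Nr5a2 amplified region: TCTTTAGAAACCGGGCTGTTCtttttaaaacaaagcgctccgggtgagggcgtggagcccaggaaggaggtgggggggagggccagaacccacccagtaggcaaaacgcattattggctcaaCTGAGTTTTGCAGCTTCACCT
Nr0b1 start: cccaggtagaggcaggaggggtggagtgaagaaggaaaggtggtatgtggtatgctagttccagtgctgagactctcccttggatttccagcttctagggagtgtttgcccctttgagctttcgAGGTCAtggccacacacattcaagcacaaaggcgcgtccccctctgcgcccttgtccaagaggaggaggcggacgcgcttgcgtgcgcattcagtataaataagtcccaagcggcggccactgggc

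The amplified region of *Nr5a2* holds 5 CpG dinucleotides, and 2 of them lie in CCGG, the site that the enzymes of the study's methylation assay cut. Among the 5 windows of 250 bases before the annotated starts of the 3 genes, those of *Esrrb* hold 6 CpGs at the outer start and 3 at the inner one, those of *Nr5a2* hold 2 and 6, and that of *Nr0b1* holds 11, where the median of 32851 windows before mouse gene starts is 6. The nuclear receptor half-site AGGTCA, searched like all motifs on both strands, occurs once in the outer window of *Nr5a2*, 64 to 59 bases before the start, and once in that of *Nr0b1*, 126 to 121 bases before it. It occurs in 14.02% of all such windows. The longer sites AAGGTCA (4.08% of windows), which contains the half-site and is the preferred form of ESRRB, and AAGGCCA (5.24%), an NR5A variant, are in none of the 5. The STAT palindrome TTCNNNGAA (7.02% of windows) occurs in the outer window of *Esrrb*. The KLF core CCACCC is in 4 of the 5, all but the outer window of *Nr5a2*, and in 28.1% of all windows. The PRDM14 motif GGTCTCTAA (0.240%), the octamer core ATGCAAA (4.12%) and the TCF sites CTTTGAA (4.46%) and CTTTGAT (3.21%) are in none. The TATA box letters TATAAA (12.4%) lie 32 to 27 bases before the start of *Nr0b1*, and on the other strand in the outer window of *Nr5a2*. The motifs were chosen after the windows had been seen, and a match is a description of these letters and not a binding site.

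Signals are given as log2 above the median of all probe sets of the array, besides controls. *Esrrb*, at its brighter probe set, read 3.24 in ESCs, 1.64 and 1.18 in EpiLCs at day 2 and day 4, 2.82 in EpiLCs + PRDM14, and 2.03 at day 2 and 2.81 with PRDM14 in the arrays labelled KD. It was thus high in ESCs and in both arrays with PRDM14, low in the scramble EpiLCs and between these in the KD-labelled EpiLCs (d2). The other probe set of *Esrrb* lay below the array median on all 6 arrays, at -0.19, -0.49, -0.43 and -0.05 in the same order and at -0.63 and -0.43 in the arrays labelled KD. This dim probe set was higher with PRDM14 than without as well, but by less. *Nr5a2* read 2.95 in ESCs, 1.21 on both scramble arrays without PRDM14, 2.70 in EpiLCs + PRDM14, and 2.13 and 2.63 in the arrays labelled KD at day 2 and with PRDM14. *Nr0b1* read 2.78 in ESCs, 1.06 and 1.00 in EpiLCs (d2) and (d4), 2.96 in EpiLCs + PRDM14, and 2.45 and 2.52 in the arrays labelled KD. At the brightest probe set of each gene the 2 scramble EpiLC arrays without PRDM14 were the lowest of the 6, while at the dim *Esrrb* probe set the KD-labelled EpiLCs (d2) were. Since these are bulk cultures, fewer cells with the transcript and less transcript per cell cannot be told apart.

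**Figure D1:**
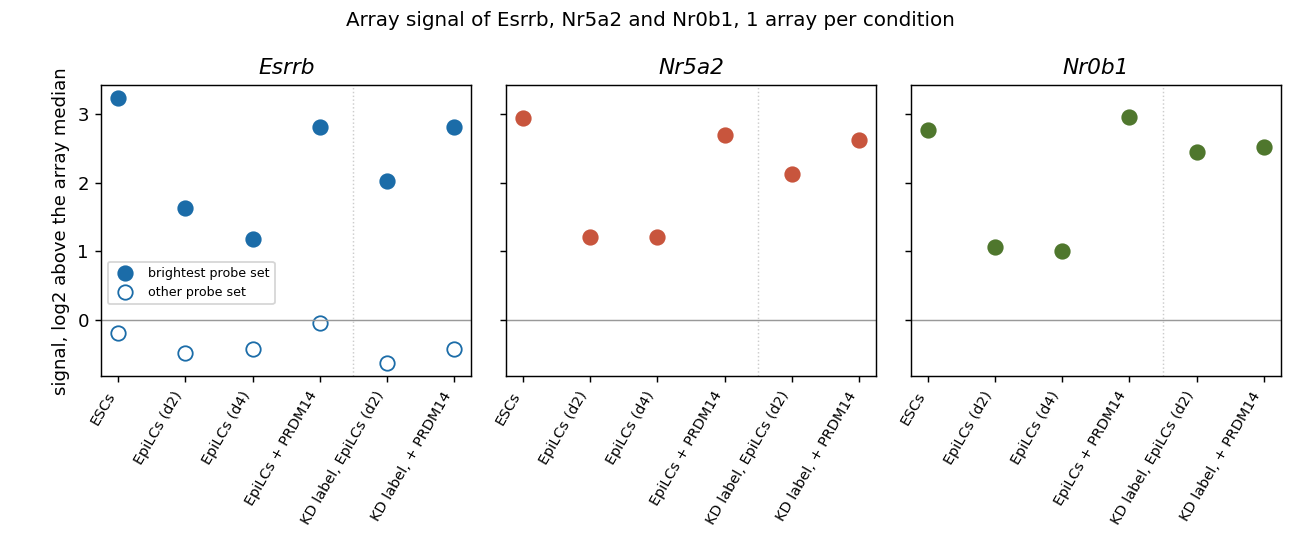
Signal of each probe set of *Esrrb*, *Nr5a2* and *Nr0b1* (y axis, log2 above the array median) on the 6 arrays (x axis), 1 point per array with no error bar because each condition has 1 array. Filled points are the brightest probe set of the gene and open points the other *Esrrb* probe set, and the dotted line separates the KD-labelled arrays. In each gene EpiLCs (d2) and (d4) are the lowest filled points, and the KD-labelled EpiLCs (d2) lie above them.

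The order of the arrays was the same for *Esrrb* and *Nr5a2*, from ESCs through EpiLCs + PRDM14, the KD-labelled array with PRDM14 and the KD-labelled EpiLCs (d2) to EpiLCs (d2) and EpiLCs (d4). In *Nr0b1* EpiLCs + PRDM14 came first and ESCs came next, and the rest of the order was the same. With 1 array per condition there is no replicate spread and no p-value, so neighbours were set against 1.5-fold, a log2 difference of 0.58 and the threshold of the study. ESCs and the 2 arrays with PRDM14 lay within 0.43 of each other for *Esrrb*, 0.32 for *Nr5a2* and 0.44 for *Nr0b1*, all under 1.5-fold. The scramble EpiLCs lay within 0.45, 0.003 and 0.06 of each other in the same order of genes. The gap between the lowest array of the first set and the higher scramble EpiLC array was 1.18 for *Esrrb*, 1.41 for *Nr5a2* and 1.47 for *Nr0b1*. The KD-labelled EpiLCs (d2) fell into the gap for each gene, and for *Nr0b1* lay near its upper edge, 0.07 below the KD-labelled array with PRDM14.

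From ESCs to EpiLCs (d2) all 3 receptor genes fell past 1.5-fold. ESCs were higher than EpiLCs (d2) by 1.60 for *Esrrb* (3.04-fold), 1.74 for *Nr5a2* (3.33-fold) and 1.72 for *Nr0b1* (3.30-fold), which are ranks 63, 48 and 51 of the 17097 genes. In this comparison 2.64% of all genes were higher past 1.5-fold and 2.35% lower. For *Esrrb* the difference was 0.29 at the dim probe set, under the threshold, and 0.95 as the median of both. Between EpiLCs (d2) and EpiLCs (d4), where 2.18% of genes were higher and 1.12% lower, none of the 3 passed the threshold. The differences were -0.45 for *Esrrb*, 0.00 for *Nr5a2* and -0.06 for *Nr0b1*.

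With PRDM14 all 3 genes of the scramble cultures were higher than at day 2, by 1.18 for *Esrrb* (2.27-fold), 1.49 for *Nr5a2* (2.81-fold) and 1.90 for *Nr0b1* (3.73-fold). Of all genes, 2.72% were higher past 1.5-fold and 1.91% lower, and the middle 95% of genes lay between -0.51 and 0.62. Against EpiLCs (d4), the later array without PRDM14, the differences were 1.64, 1.496 and 1.96, which are ranks 17, 25 and 10 of all genes, with 1.86% of genes higher and 2.17% lower. Both comparisons use the same EpiLCs + PRDM14 array. At the dim *Esrrb* probe set the differences were 0.43 and 0.38, under the threshold, and as the median of both *Esrrb* probe sets 0.81 and 1.01. ESCs and EpiLCs + PRDM14 differed by less than 1.5-fold in all 3, with ESCs higher by 0.42 for *Esrrb* and 0.24 for *Nr5a2* and lower by 0.18 for *Nr0b1* (-0.18). There 2.25% of genes were higher in ESCs and 2.9% lower. With arrays shifted to the mean of the housekeeping genes in place of the median, the counts of higher and lower genes over all genes went from 465 and 327 to 610 and 251 against EpiLCs (d2), and from 318 and 371 to 419 and 290 against EpiLCs (d4).

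**Figure D2:**
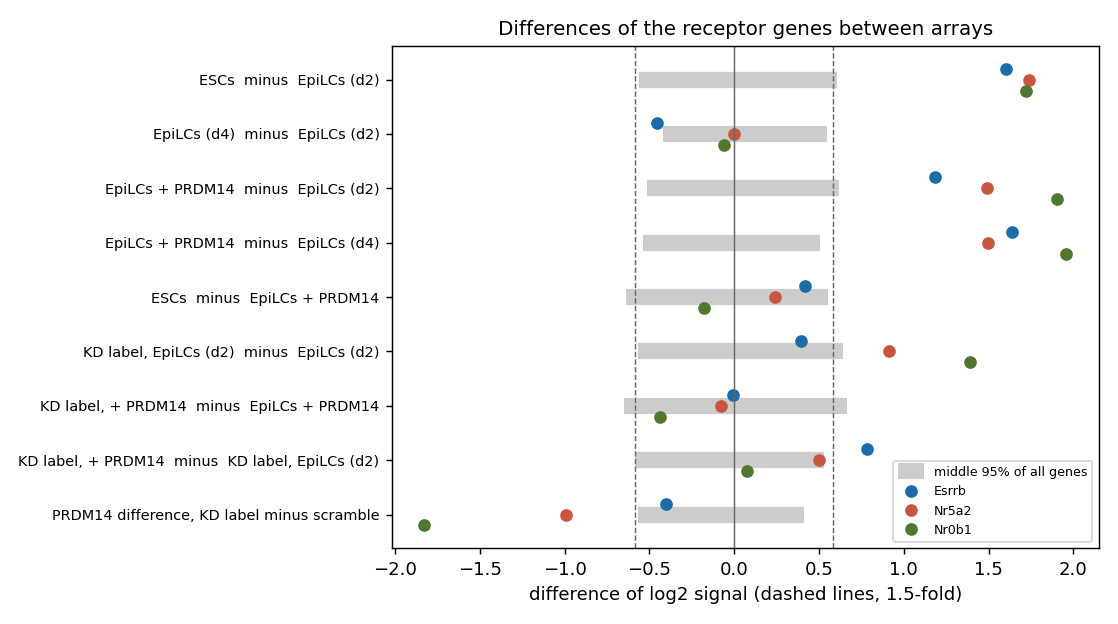
Differences of log2 signal (x axis) of *Esrrb*, *Nr5a2* and *Nr0b1* at the brightest probe set in the 9 comparisons (y axis), with 1 array on each side and no error bar. Grey bars span the middle 95% of all 17097 genes and dashed lines mark 1.5-fold. All 3 genes lie beyond the right dashed line for ESCs minus EpiLCs (d2) and for both PRDM14 differences of the scramble arrays, and *Nr5a2* and *Nr0b1* lie beyond the left one in the lowest row.

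In the arrays labelled *Tet1*/*Tet2* KD the 3 genes parted. The day 2 array was higher than its scramble counterpart by 1.39 for *Nr0b1* (2.62-fold, rank 25 of all genes) and by 0.92 for *Nr5a2* (1.89-fold), while for *Esrrb* the difference of 0.39 was under 1.5-fold, and of the opposite direction at the dim probe set (-0.15). Here 3.3% of all genes were higher past 1.5-fold and 2.25% lower, which is 564 and 385 genes. With the PRDM14 arrays compared, no receptor gene passed the threshold, with -0.01 for *Esrrb* (-0.38 at the dim probe set), -0.08 for *Nr5a2* and -0.44 for *Nr0b1*, where 3.58% of genes were higher and 3.38% lower (612 and 578 genes). These comparisons cross the lower medians of the deposited KD-labelled columns, which the median shift takes up. On the deposited values with no shift every such difference is lower by 0.21 (-0.21), *Nr0b1* with PRDM14 passes the threshold at -0.65, and over all genes the counts become 192 higher and 1276 lower at day 2 and 241 and 1638 with PRDM14. With the housekeeping shift they become 315 and 749, and 347 and 1083. The calls of *Nr5a2* and *Nr0b1* at day 2 held under both.

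Within the arrays labelled KD, the array with PRDM14 was above that of day 2 by 0.78 for *Esrrb* (1.72-fold), 0.50 for *Nr5a2* and 0.07 for *Nr0b1*, against 2.12% of all genes higher and 2.53% lower past 1.5-fold. Only *Esrrb* passed the threshold, and not as the median of its probe sets (0.50) or at the dim one (0.21). The housekeeping shift turned the counts over all genes from 363 higher and 433 lower to 452 and 326. The PRDM14 difference was thus smaller in the KD-labelled pair than in the scramble pair by 0.40 for *Esrrb* (-0.40), by 0.99 for *Nr5a2* (-0.99) and by 1.83 for *Nr0b1* (-1.83). *Nr5a2* and *Nr0b1* lay past 1.5-fold, ranks 79 and 5 from the lowest of all genes, and 2.25% of genes were lower and 0.994% higher by that much. With EpiLCs (d4) as the scramble reference *Esrrb* passed too, at -0.86. The KD-labelled day 2 array enters the last comparisons on opposite sides, so a high reading on this 1 array raises the difference between the labels at day 2 and lowers the PRDM14 difference within the label. With no KD-labelled EpiLCs (d4), PRDM14 cannot be told apart from doxycycline, replating, medium and later time within that label.

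The labels were checked on their targets. *Tet1* was not analysed here. *Tet2*, which encodes a 5-methylcytosine dioxygenase, read 3.25 in scramble and 3.43 in KD-labelled EpiLCs (d2) at its brighter probe set, a difference of 0.17, and 3.23 and 2.69 with PRDM14, a difference of -0.54. At the other probe set the differences were 0.21 and -0.17. At day 2, the array on which *Nr5a2* and *Nr0b1* stood high, neither *Tet2* probe set was lower under the KD label after the median shift, and on the deposited values with no shift the differences were -0.04 and -0.01. With PRDM14 the brighter *Tet2* probe set passed 1.5-fold with no shift (-0.75) and with the housekeeping shift (-0.66). The dim *Tet3* probe set was higher by 0.70 and 0.69 in the arrays labelled KD after the median shift. With no shift both differences change by -0.21 and lie under 1.5-fold. The single probe set of *Prdm14* stood at 1.67 in ESCs and between -0.37 and -0.10 on the 5 EpiLC arrays, and was not raised on those with PRDM14. Whether the transgene transcript holds its sequence was not examined.

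Of the nuclear receptor superfamily, 42 genes were analysed here. Of the 39 besides *Esrrb*, *Nr5a2* and *Nr0b1*, none was higher and 2 lower past 1.5-fold in ESCs against EpiLCs (d2), against shares of 2.64% and 2.35% over all genes. In ESCs against EpiLCs (d2), *Esrrb*, *Nr5a2* and *Nr0b1* were the only members higher past 1.5-fold, and they were again the only ones in EpiLCs + PRDM14 against EpiLCs (d2) and against EpiLCs (d4), at the brightest probe sets and with array medians subtracted. The median of the other 39 genes was -0.04, -0.07 and -0.04 in these comparisons, where the median of all genes was 0.00, -0.01 and 0.00. Of all genes, 2.72% were higher past 1.5-fold in EpiLCs + PRDM14 against EpiLCs (d2) and 1.86% against EpiLCs (d4). The next highest member was *Nr4a1*, an immediate early gene, at 0.31, 0.44 and 0.25. *Nr2f6*, which encodes a COUP family repressor, went the other way, with -1.28, -0.90 and -0.74, and at its other probe set -0.60, -0.31 and -0.10. *Nr1d2*, a clock receptor gene, was lower in ESCs by 0.61 (-0.61) at its brighter probe set and at 0.14 at the other. *Nr6a1* (GCNF), known as a repressor of *Pou5f1* during differentiation, was higher in EpiLCs (d4) than in EpiLCs (d2) by 0.84, the only member past the threshold there. Over all genes 2.18% were higher and 1.12% lower in that comparison. None of the 42 passed the threshold between ESCs and EpiLCs + PRDM14, where 2.25% of all genes were higher in ESCs and 2.9% lower.

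The closest relatives of the 3 genes, *Esrra*, *Esrrg*, *Nr5a1* and *Nr0b2* (SHP), stayed within 1.5-fold in all 9 comparisons, at every probe set, as most of all genes did. In EpiLCs + PRDM14 against EpiLCs (d2) they differed by -0.07, -0.08, 0.05 and -0.10. *Esrra* read between 0.76 and 1.07 above the array median over the 6 arrays and *Nr5a1*, the steroidogenic factor gene, between 1.22 and 1.35. *Nr0b2* read 0.92 to 1.02 on the arrays without the KD label and 1.27 and 1.33 on those with it.

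Under the KD label some other superfamily members passed the threshold. At day 2, *Thra* (0.88) and *Nr4a3* (0.92) were higher, beside *Nr5a2* and *Nr0b1*, and *Rora* (-0.75) and *Rxrg* (-0.83) were lower. Without the 3 receptor genes, 2 of 39 were thus higher and 2 lower, against 3.3% and 2.25% of all genes. Each of *Thra*, *Nr4a3* and *Rora* passed at its brightest probe set and stayed within the threshold at its others. With PRDM14, *Nr4a3* (1.05) was higher and *Rora* (-0.62) lower, against 3.58% and 3.38% of all genes. Within the KD-labelled pair *Esrrb* was higher and *Thra* (-0.62) and *Nr1d2* (-0.60) lower, against 2.12% and 2.53% of all genes. The difference of the PRDM14 differences was past 1.5-fold for *Ppard* (0.62) on the higher side and for *Nr5a2* and *Nr0b1* on the lower. Over all genes 0.994% lay past it on the higher side and 2.25% on the lower.

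**Figure D3:**
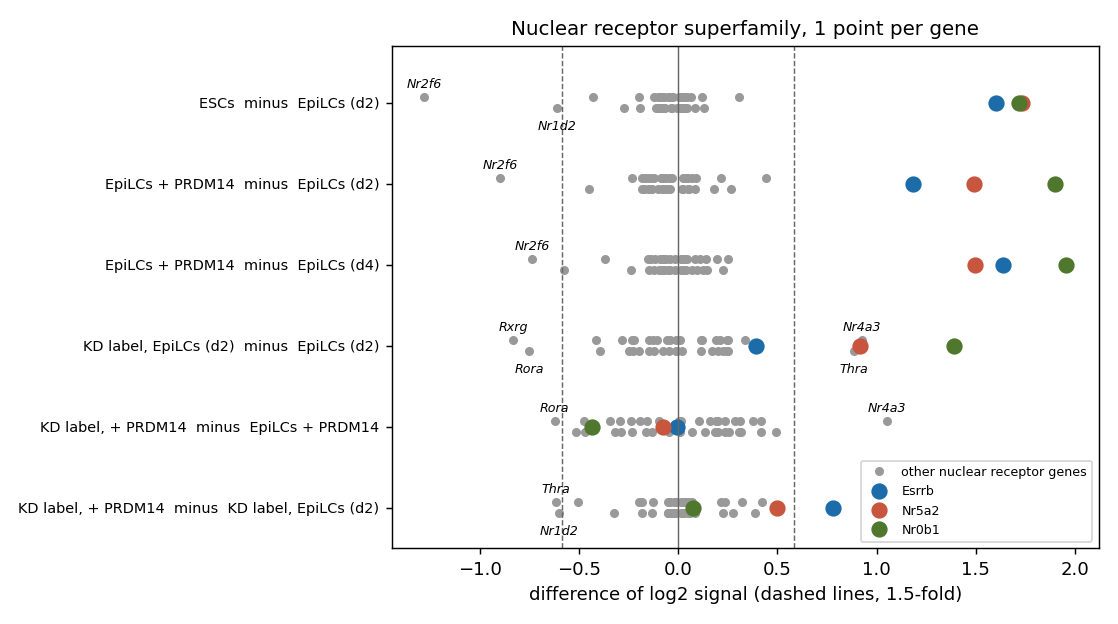
Differences of log2 signal (x axis) of the 42 measured nuclear receptor genes in 6 comparisons (y axis), 1 point per gene at its brightest probe set, with no error because each side is 1 array and grey points set in 2 rows only for legibility. Dashed lines mark 1.5-fold and other genes past it are named. *Esrrb*, *Nr5a2* and *Nr0b1* stand apart on the right in the upper 3 rows. In the fourth only *Nr0b1* does, and *Nr5a2* (0.92) lies beside *Nr4a3* (0.92) and *Thra* (0.88).

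Genes that the receptors are known to work with were read from lists chosen with earlier results of these data known. Of 13 measured coactivator genes, *Crebbp* (0.62), which encodes a histone acetyltransferase, was the only one past 1.5-fold in EpiLCs + PRDM14 against EpiLCs (d2), and *Ncoa7* (-1.06) the only one in ESCs against EpiLCs (d2). The shares over all genes were 2.72% higher and 1.91% lower in the former and 2.64% and 2.35% in the latter. In EpiLCs + PRDM14 against EpiLCs (d4) *Crebbp* lay at 0.17 and no coactivator gene passed, where 1.86% of all genes were higher and 2.17% lower. *Ncoa3*, the coactivator gene best known as a partner of ESRRB in ESCs, stayed within the threshold in ESCs and with PRDM14, at -0.26 and -0.14 at its brighter probe set and at 0.03 and -0.21 at the other. Of 9 corepressor genes *Rcor1* (-0.64) was lower with PRDM14 and *Nrip1* (-0.61) lower in ESCs, both against EpiLCs (d2), where 1.91% and 2.35% of all genes were. Against EpiLCs (d4) *Rcor1* (-0.577) lay under the threshold with PRDM14. There *Tbl1x* (-0.64) was the only corepressor gene past it at its brightest probe set, where 2.17% of all genes were lower. Of 11 genes of the WNT and TCF branch, none passed at its brightest probe set in any comparison of the 4 arrays without the KD label. Of all genes, 1.12% to 2.9% passed on either side in these comparisons. *Tcf7l1*, the gene of the repressor of *Esrrb*, was at 0.44 in ESCs and 0.40 with PRDM14 at that probe set, and at 0.92 and 0.79, past the threshold, at its other one. Targets of NR5A receptors in other organs had list medians near the array median in EpiLCs + PRDM14, 0.17 for 10 steroidogenic and -0.08 for 10 hepatic genes. There 5 of the former and 6 of the latter lay below the array median. The highest were *Fdx1* (3.05) and *Abcg8* (1.48). *Fdx1* was higher in ESCs than in EpiLCs + PRDM14 by 0.63, past the threshold. None of either list was past 1.5-fold with PRDM14 in the scramble arrays, where 2.72% of all genes were higher and 1.91% lower against EpiLCs (d2). In the arrays labelled KD 1 hepatic gene was lower and 1 higher in each comparison with scramble. Of all genes 2.25% were lower and 3.3% higher at day 2, and 3.38% and 3.58% with PRDM14. *Cyp7a1*, the bile acid synthesis gene, lay at -0.61 at day 2 and -0.67 with PRDM14, and at 0.44 and 0.47 at its other probe set. *Apoa1*, an apolipoprotein gene, lay at 0.66 and 0.73, and at -0.46 and -0.19 at its other probe set. All these probe sets are below the array median and they oppose each other within each gene.

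The partners of the receptors in the naive network moved in part with them. Of 16 genes, 8 were higher and 2 lower in ESCs than in EpiLCs (d2), with a median of 0.55, where 2.64% of all genes were higher and 2.35% lower. In EpiLCs + PRDM14 against EpiLCs (d2) 8 were higher and none lower, where 2.72% and 1.91% of all genes were. The median of the 16 was 0.65 there, against -0.01 over all genes. The 8 were *Nanog* (2.34), *Klf2* (1.30), *Klf4* (1.99), *Tfcp2l1* (1.10), *Tbx3* (0.74), *Zfp42* (1.31), *Tcl1* (2.60) and *Dppa3* (1.91). Against EpiLCs (d4) 8 were higher and 1 lower, where 1.86% and 2.17% of all genes were. *Sox2* (0.69) passed there in place of *Tbx3* (0.46). At day 2 under the KD label 5 were higher than in scramble EpiLCs (d2) and none lower, against 3.3% and 2.25% of all genes. They were *Nanog* (1.07), *Klf4* (1.06), *Tfcp2l1* (0.70), *Tcl1* (1.22) and *Gbx2* (0.73), and *Tbx3* lay at 0.57 by its brightest probe set and at 1.43 by a dimmer one. With no array shift these differences change by -0.21, *Tfcp2l1* and *Gbx2* no longer pass, and 1.12% of all genes are higher. With the housekeeping shift they change by -0.11, *Tfcp2l1* no longer passes, and 1.84% of all genes are higher. The KD-labelled PRDM14 difference passed on the higher side for 8 genes, where 2.12% of all genes did, *Nanog* (1.49), *Klf4* (2.75) and *Dppa3* (2.07) among them, and *Gbx2* was lower (-1.27). Set against the scramble pair, *Nanog* (-0.84), *Zfp42* (-0.79) and *Tcl1* (-1.72) had a smaller positive difference by more than 1.5-fold, as *Nr5a2* and *Nr0b1* had. *Gbx2* (-1.45) went from 0.17 in the scramble pair to a negative difference, and *Klf4* (0.75) and *Stat3* (0.62) lay past 1.5-fold on the higher side. Over all genes 2.25% lay past it on the lower side and 0.994% on the higher. The value of *Nr0b1* (-1.83) was below those of all 16.

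**Figure D4:**
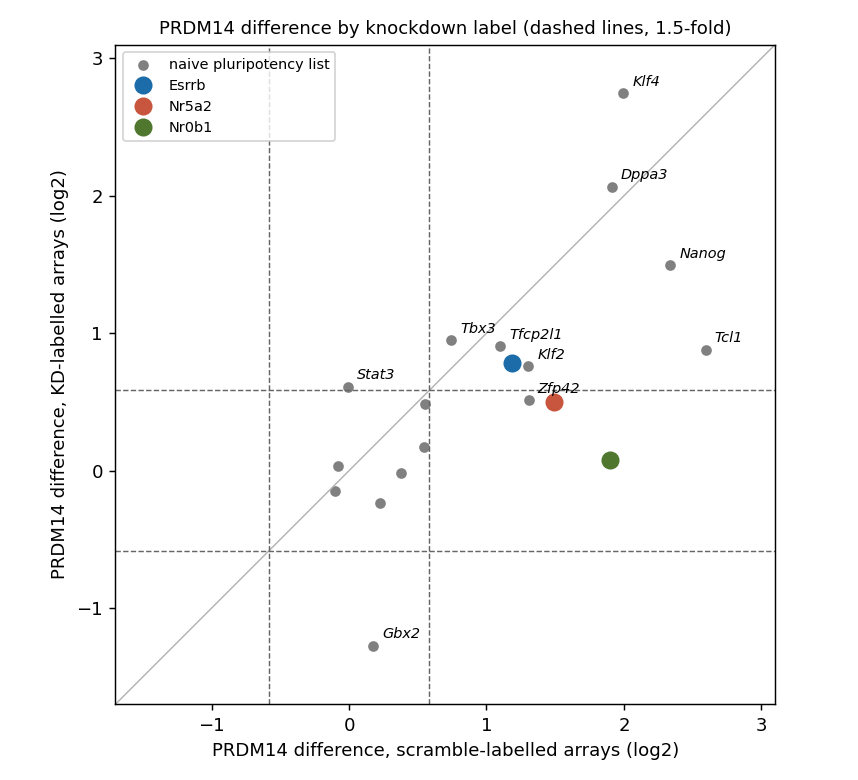
PRDM14 difference (log2, + PRDM14 minus day 2) in the scramble arrays (x axis) against that in the KD-labelled arrays (y axis) for *Esrrb*, *Nr5a2*, *Nr0b1* and 16 genes of naive pluripotency, 1 point per gene from 4 arrays in all, without error. The grey line marks equal differences and dashed lines 1.5-fold. *Nr0b1* lies at 1.90 and 0.07, *Tcl1* at 2.60 and 0.88 and *Klf4* at 1.99 and 2.75.

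Markers of other cell states stood beside these values. With day 2 as the reference, 6 of 11 primed epiblast markers were lower with PRDM14 in the scramble arrays and none higher. Of all genes 1.91% and 2.72% were. *Pou3f1* (-3.37) and *Dnmt3b* (-2.10) were lower by the most. With day 4 as the reference, 4 were lower and none higher, where 2.17% and 1.86% of all genes were. *Otx2* (-0.34), *Dnmt3a* (-0.39) and *Foxd3* (-0.34) then lay within the threshold, and *Zic2* (-0.71) lay past it. Without PRDM14, *Otx2* (-1.10) was lower and *Zic2* (0.90) higher at day 4 than at day 2. In the KD-labelled EpiLCs (d2) 1 of 11 was lower than in the scramble array at its brightest probe set, *Zic2* (-1.25), against 2.25% of all genes. *Pou3f1* (-0.22), *Otx2* (-0.18) and *Dnmt3b* (-0.35) stayed within the threshold there, but the other *Dnmt3b* probe set, which is bright too, was lower past it (-1.08). Of 14 trophoblast markers, *Krt8* (1.44) and *Krt18* (1.10), which many simple epithelia also express, were higher at day 2 under the KD label, where 3.3% of all genes were, and 6 were higher with PRDM14 under it, where 3.58% were. In the scramble arrays 3 were higher with PRDM14 (2.72% of all genes) and 6 in EpiLCs (d4) (2.18%), both against EpiLCs (d2). Between EpiLCs + PRDM14 and EpiLCs (d4), 1 was higher with PRDM14 and 4 lower, where 1.86% and 2.17% of all genes were. Their median level ran from 0.69 in EpiLCs (d2) to 1.46 in the KD-labelled array with PRDM14, while *Cdx2* stayed between 0.46 and 0.56 and *Elf5* below the array median. *Eomes* stayed within 1.5-fold under the KD label at its brighter probe set (0.07 at day 2 and 0.13 with PRDM14) and was higher at the other (1.40 and 1.00). Of 15 endoderm markers none was past 1.5-fold with PRDM14 in the scramble arrays, and *Col4a1* (1.04) and *Apoa1* (0.66, opposed by its other probe set as above) were higher at day 2 under the KD label. With PRDM14 under it 4 of 15 were higher and none lower, *Dab2* (0.76), *Apoa1* (0.73), *Cubn* (0.65) and *Col4a1* (0.89), against 3.58% and 3.38% of all genes. With no array shift the differences across the labels change by -0.21. *Dab2*, *Apoa1*, *Cubn* and the trophoblast marker *Tfap2c* then lie under 1.5-fold with PRDM14, and 1.41% of all genes are higher. *Gata4* lay below the array median on all 6 arrays. Of 10 fibroblast markers 8 lay below it on each array, and *Vim* and *Dcn* lay above it. *Vim*, the vimentin gene, which many cultured cells express, read 5.68 in ESCs, was higher there than in EpiLCs (d2) by 0.97, and lay at -1.09 in EpiLCs + PRDM14 and -1.16 in EpiLCs (d4) against EpiLCs (d2). It was higher under the KD label with PRDM14 by 1.38. *Dcn* lay at -0.62 in EpiLCs + PRDM14 against EpiLCs (d2), so 2 of 10 were lower there, where 1.91% of all genes were. Against EpiLCs (d4) *Dcn* lay at -0.43 and none of the 10 passed, where 2.17% of all genes were lower. The part of any of these in the values of the receptor genes was not tested.

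The genes with the most similar course were sought among all genes, by the root mean square distance between profiles over the 6 arrays after the mean of each gene was removed. *Esrrb* lay nearest to *Abcb1b*, a drug efflux pump gene (0.11), *Ccpg1* (0.16), *Nr5a2* (0.18), *2210409E12Rik* (0.22) and *Gjc1*, a connexin gene (0.23). *Nr5a2* lay nearest to *Ccpg1* (0.09), then *Esrrb* and *Abcb1b* (both 0.18), *Gjc1* (0.19) and *Zfp42* (0.20), which encodes REX1. *Nr0b1* lay nearest to *Nr5a2* (0.21), followed by *Ccpg1* (0.28), *Gjc1* (0.30), *Mreg* (0.32) and *Aard* (0.33). The Pearson correlations of these pairs over the 6 arrays were 0.92 to 1.00, and the arrays share cell line, platform and, for 3 of them, the scramble label. By this distance *Nr5a2* was among the 5 nearest genes of both other receptors, while *Esrrb* and *Nr0b1* were 0.34 apart and stood outside each other's list, at rank 19 from *Esrrb* and rank 6 from *Nr0b1*. With Pearson correlation as the measure of likeness in place of the distance, 2 of the 5 nearest genes stayed for *Esrrb*, 1 for *Nr5a2* and 0 for *Nr0b1*. *Abcb1b* resembled *Esrrb* at its brightest probe set only, since its other one varied between 0.56 and 0.98.

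**Figure D5:**
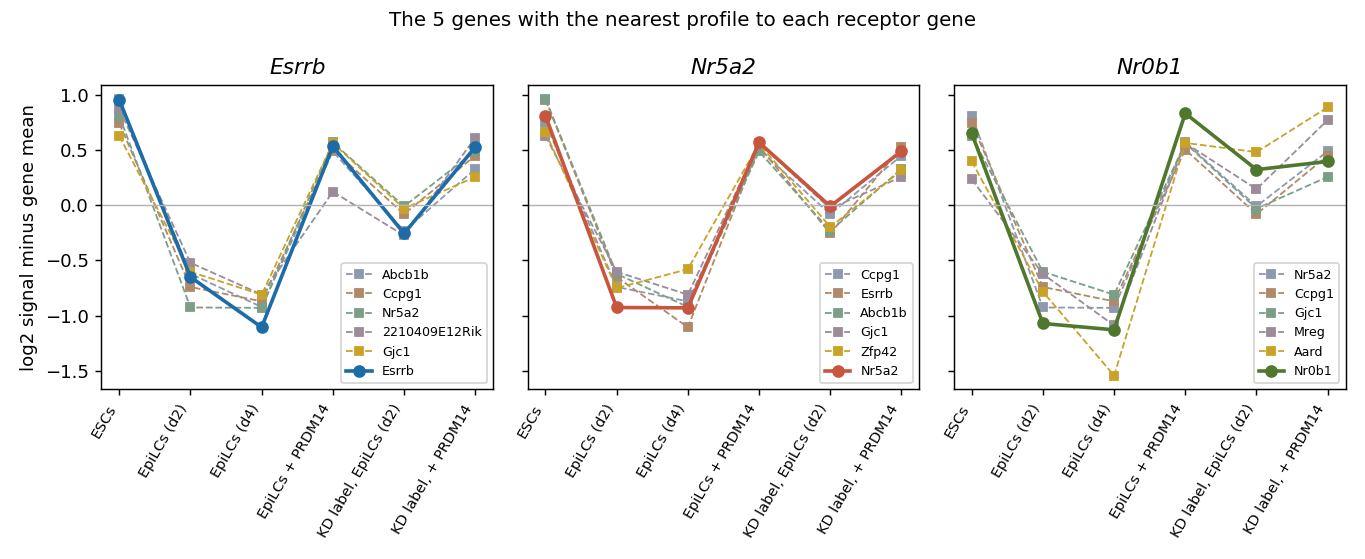
Profiles over the 6 arrays (x axis) of *Esrrb*, *Nr5a2* and *Nr0b1* (thick lines) and of the 5 genes nearest to each (dashed lines), as log2 signal minus the mean of the gene over the arrays (y axis), 1 array per point. All lines dip at EpiLCs (d2) and (d4). The KD-labelled EpiLCs (d2) lie between the dip and ESCs for *Esrrb*, *Nr5a2* and *Nr0b1*, and above ESCs for *Aard*.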

How the data were processed

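RNA of 6 cultures, 1 per condition, was run on GeneAtlas arrays (Affymetrix MG-430 PM). From the scans the authors computed log2 signals by RMA, default settings, and deposited them. The labels name Affymetrix Expression Console, with a version not given in the sources. The median of the deposited log2 values is 5.07 on both arrays labelled KD and 5.28 to 5.29 on the others, so they were probably normalized in separate runs, and the array median was subtracted from every array. Of 45141 probe sets, 104 controls were left out. GEO's platform annotation gives 28898 of the rest 1 symbol, 551 several and 15588 none. Where several probe sets name 1 gene, that of highest mean signal across the 6 arrays, called its brightest, stands for it. Differences of log2 signal were called past 1.5-fold without any test or p-value, because the number of arrays allows none, and this number limits the precision. Named genes are every probe set of the 3 receptors, their closest paralogs, the 5 nearest profiles of each, *Prdm14* and the *Tet* genes, and list members past the threshold or among the 4 largest differences. *Cdx2*, *Elf5*, *Eomes*, *Gata4*, *Ncoa3*, *Tcf7l1*, *Nr4a1* and *Tbx3* fall partly outside this rule and were chosen with their values known. The members and lists were chosen with earlier results of these data known. Alternatives were a 2-fold threshold, the other or the median probe set, quantile normalization, no array shift, a housekeeping shift, a filter on dim probe sets, EpiLCs (d4) as reference, Pearson correlation and 4 arrays for the profiles. On simulated arrays the calls recovered planted differences well past 1.5-fold under small noise. That check does not bear on differences near 1.5-fold or on the spread between cultures. Promoter windows and gene positions are from RefSeq (GRCm38.p6), in which all 3 genes were found, and the primers of the amplified region from the study's supplement. Python 3.11.15, pandas 2.3.3, numpy 2.4.6 and matplotlib 3.10.9 were used.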

Additional observations from a re-analysis of the deposited data

How the results depend on the processing

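Each condition has 1 array, so every value rests on single arrays and a difference of 1.5-fold has no replicate check. No paired analysis was possible because each group has 1 array and the labels carry no replicate numbers. Quantile normalization and the housekeeping shift left all 27 calls of the 3 genes on their side of 1.5-fold. With no array shift, *Nr0b1* in KD-labelled against scramble PRDM14 arrays passed (-0.65), 1 gene of 3 in place of none. Array scaling moves differences across the labels by -0.21 with no shift, and with the housekeeping shift by -0.11 at day 2 and -0.13 with PRDM14. At 2-fold, 24 of 27 calls kept. *Nr5a2* at day 2 under the KD label (0.92) and in the difference of PRDM14 differences (-0.99) no longer passed, which left 1 gene of 3 in each, and *Esrrb* within the KD-labelled pair (0.78) no longer passed, which left 0. The dim *Esrrb* probe set alone took *Esrrb* under the threshold in ESCs against EpiLCs (d2) (0.29), in EpiLCs + PRDM14 against EpiLCs (d2) (0.43) and (d4) (0.38) and within the KD-labelled pair (0.21). The median of the probe sets did so only within the KD-labelled pair (0.50, 0 genes of 3). With EpiLCs (d4) as reference *Esrrb* passed in the difference of PRDM14 differences (-0.86). The cause of these changes was not tested, apart from the stricter threshold itself.

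Of the 5 nearest profiles, Pearson correlation shared 2 for *Esrrb*, 1 for *Nr5a2* and 0 for *Nr0b1*, and the 4 arrays without the KD label shared 3, 3 and 2. Over all genes, the counts past 2-fold were 175 higher and 148 lower for ESCs minus EpiLCs (d2), 122 and 40 for EpiLCs (d4) minus (d2), 179 and 81 for EpiLCs + PRDM14 minus EpiLCs (d2), 86 and 123 against EpiLCs (d4), 131 and 185 for ESCs minus EpiLCs + PRDM14, 85 and 37 for KD-labelled minus scramble at day 2, 118 and 75 with PRDM14, 145 and 104 within the KD-labelled pair, and 33 and 74 for the difference of PRDM14 differences. Across the labels at day 2 they were 192 and 1276 past 1.5-fold with no array shift and 315 and 749 with the housekeeping shift, and with PRDM14 241 and 1638, and 347 and 1083. The filter on dim probe sets kept 12102 genes and moved no count by over 1.5 times.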

Other observations

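The early germ cell gene *Dppa3* (stella) was the naive network member with the widest departure between ESCs and EpiLCs + PRDM14. It read 1.21 above the array median in ESCs, 1.98 and 2.33 in scramble EpiLCs at day 2 and day 4, 3.89 in EpiLCs + PRDM14, and 1.87 and 3.94 at day 2 and with PRDM14 in the arrays labelled KD. It was thus lower in ESCs than in EpiLCs + PRDM14 by 2.69 (-2.69), where *Esrrb*, *Nr5a2* and *Nr0b1* differed by less than 1.5-fold. *Tfap2c*, which encodes a trophoblast and germ cell factor, read 0.05 in EpiLCs (d2), 2.03 in EpiLCs + PRDM14, -0.15 in KD-labelled EpiLCs (d2) and 2.75 in the KD-labelled array with PRDM14, so that its PRDM14 difference was 1.98 in the scramble and 2.90 in the KD-labelled arrays. The PRDM14 difference of *Nr0b1* was 1.90 in the former and 0.07 in the latter. EpiLCs (d4), the scramble array without PRDM14, read 1.31 for *Tfap2c*, which is 1.26 above EpiLCs (d2). The scramble array with PRDM14 lay 0.73 above this day 4 reading. For *Nr0b1* the matching differences were -0.06 and 1.96. *Crebbp*, past the threshold in either direction, read 1.33 in EpiLCs (d2), 1.95 in EpiLCs + PRDM14, 0.44 in KD-labelled EpiLCs (d2) and 1.58 in the KD-labelled array with PRDM14.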
